A study of Mus musculus with 3 samples.

Results

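Dividing macrophages in G2 and mitosis were described in 3 mouse mammary tumours. They were chosen by a score, as the 7% of cells in each library with the highest values over 10 transcripts of G2 and mitosis (Top2a, Mki67, Ube2c, Birc5, Cenpf, Ccnb2, Cdk1, Tpx2, Nusap1 and Prc1), where the score is the mean of ln(1 + UMIs per 10000). A UMI (unique molecular identifier) marks a single captured transcript. The rule took 46 cells of mouse 1, 148 of mouse 2 and 488 of mouse 3, or 682 of 9749 kept cells, which are called dividing cells here. They were set against the 617, 1960 and 6490 other kept cells of the same mice. A second set, called S-phase cells, held 43, 137 and 454 of those others, the 7% with the highest score over 10 replication genes (Mcm2 to Mcm7, Pcna, Gins2, Cdc6 and Dtl). All cells came from FVB/N-Tg(MMTVPyVT)634Mul/J mice, in which the mouse mammary tumour virus promoter drives the polyoma middle T oncogene in mammary epithelium. Every mouse gave 1 tumour of 750 mm3, with no treatment, age or other group given, and the sort kept CD45+ CD11b+ F4/80+ cells that were Ly6G-. The tissue had been digested with collagenase at 37 °C before the sort.

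A cell that enters the cycle first makes the proteins that license and copy DNA, then copies it in S phase, passes through G2 and divides in mitosis. Cyclin B and its kinase Cdk1 start mitosis, Aurora and Polo-like kinases build the spindle, and the anaphase promoting complex ends it by marking cyclin B and securin for destruction. Tissue macrophages can divide locally under signals such as CSF1, which acts through the receptor that Csf1r encodes.

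The 3 libraries held 12454677 to 86178419 UMIs. No barcode was shared by mouse 1 with the other mice, and 8 were shared by mice 2 and 3. The sorted identity was checked on 16 genes of macrophages, of which a dividing cell had UMIs of a median of 14.5, 15 and 15 in mice 1, 2 and 3, against 15, 15 and 14 in the other kept cells. Of the marker lists of other cell types, 3 of 7 T cell genes (Cd3e, Cd3d and Cd3g), 4 of 5 natural killer cell genes (Ncr1 among them) and 2 of 5 neutrophil genes (Ly6g among them) had 0 UMIs in the dividing cells. The T cell list as a whole summed to 63.6, 239.4 and 110.8 CPM (counts scaled to the same total UMIs in every group of cells) in dividing cells, against 87.0, 226.6 and 113.2 CPM in other kept cells, and in mouse 2 UMIs of 3 or more of its genes were found in 3 of 148 dividing cells, against 9 of 1960 other kept cells. The part of these cells in the results was not tested. UMIs of 3 or more markers of another lineage were found in 1, 6 and 23 dividing cells and in 15, 109 and 277 other kept cells. Most of these carried genes of the tumour epithelium, whose summed level was 21.5, 32.8 and 60.9 CPM in dividing cells, against 96.6, 251.5 and 171.7 CPM in other kept cells.

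Mouse 1 stood apart in how well the rule worked. UMIs of at least 5 of the 10 score genes were found in 69.6% of its dividing cells, against 98.0% in mouse 2 and 98.2% in mouse 3. In the whole library, such cells made up 35 of 663 in mouse 1 (5.28%, exact binomial 95% interval 3.70 to 7.27), 228 of 2108 in mouse 2 (10.8%, 9.52 to 12.2) and 720 of 6978 in mouse 3 (10.3%, 9.61 to 11.1). The intervals cover counting error only. The 3 dividing cells nearest the threshold scored 0.2502 to 0.268 in mouse 1, 0.639 to 0.643 in mouse 2 and 0.686 to 0.690 in mouse 3. The 3 other cells nearest below it scored 0.238 to 0.239 in mouse 1, 0.631 to 0.634 in mouse 2 and 0.679 to 0.685 in mouse 3. The fixed share of 7% thus reached cells with weaker scores in mouse 1 and left 83 cells of mouse 2 and 241 of mouse 3 with 5 or more score genes among the others. Of the 46 dividing cells of mouse 1, 14 had UMIs of fewer than 5 score genes, and 12 of 3 or fewer. These 14 were shallow, with a median of 5663 UMIs, against 26168.5 in the other 32. The lowest-scoring had UMIs of 1 score gene, among 892 UMIs. Whether these 14 cells were dividing was not tested.

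Dividing cells yielded more UMIs than the other kept cells. Their median was 20489.5, 23951 and 14837 UMIs in mice 1, 2 and 3, against 14951, 13148 and 9036 in other kept cells, or 1.37, 1.82 and 1.64 times as many. The same groups had medians of 3793.5, 4475 and 3550.5 detected genes in dividing cells and 3124, 3059.5 and 2445 in other kept cells. The S-phase cells had medians of 24611, 19820 and 12546 UMIs. Mitochondrial transcripts took 4.97, 4.53 and 4.57% of the UMIs of a median dividing cell and 4.60, 4.65 and 4.65% in other kept cells. Removing the cells with the highest doublet scores would take 12.1% of the dividing cells of mouse 3, against 5.10% of its other cells. The part of depth and doublets in the results was not tested beyond the values given beside them.

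The score genes chose the cells, so their levels are a description without a test. Top2a, the topoisomerase that untangles DNA before chromosomes part, had 280.2, 625 and 651 CPM in dividing cells, against 9.57, 25.2 and 24.1 CPM in other kept cells. Ube2c, the ubiquitin-conjugating enzyme of the anaphase promoting complex, had 233, 268 and 450 CPM in dividing cells, against 4.78, 4.88 and 7.95 CPM in other kept cells. Ccnb2, a B-type cyclin, had 161, 123 and 167 CPM in dividing cells, against 2.69, 6.71 and 9.11 CPM in other kept cells. For each of the 3 genes, the lowest mouse of the dividing cells lay above the highest mouse of the other cells. Nusap1, which bundles spindle microtubules, had 97.6, 160.2 and 215 CPM in dividing cells, against 0.199, 2.77 and 4.55 CPM in other kept cells, and its log2 difference of 5.75 was the highest of the 10. Mki67, the Ki-67 antigen that coats mitotic chromosomes, had the lowest, 3.60, with 357, 829 and 488 CPM in dividing cells and 25.1, 70.5 and 36.1 CPM in other kept cells. Mki67 and Top2a were already above the other kept cells in the S-phase cells, which had 95.03 ± 51.4 CPM of Mki67 and 75.3 ± 39.2 CPM of Top2a (mean ± SD, n = 3 mice).

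**Figure D1:**
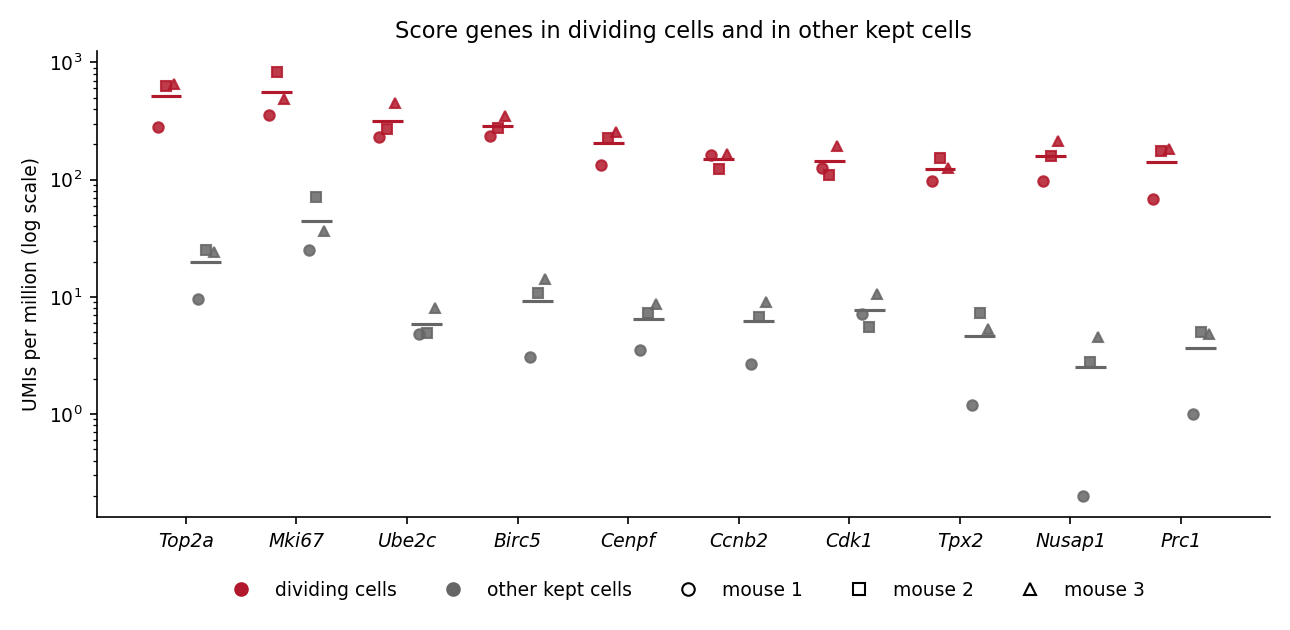
Levels of the 10 score genes in CPM on a log axis, with a point per mouse for dividing cells (left of each pair) and other kept cells (right), and horizontal lines at the means. The points of the dividing cells lie above those of the other cells for each gene, as the choice of the cells requires.

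Genes that rise in G2 and mitosis are known to carry CCAAT boxes, bound by NF-Y, and CHR elements (cell cycle genes homology region), bound by the DREAM and MuvB complexes, near their starts. Both motifs were looked for on either strand, as CCAAT or ATTGG and as TTTGAA or TTCAAA, in RefSeq windows (build GRCm38.p6) of 250 bases before to 50 after a gene's start. Of the 10 score genes 9 had a window, and 7 of these (77.8%) held both motifs, against 7.12% of all 27025 windows. The 250 bases before the start are shown for 4 genes, because they show how the motifs lie close to the start in genes of different functions. They are written on the gene's strand and with both motifs in capitals. Top2a lies at chr11:99024190-99024439 (minus strand), Ube2c at chr2:164769679-164769928 (plus strand), Ccnb2 at chr9:70421555-70421804 (minus strand) and Cdk1, the mitotic kinase, at chr10:69352913-69353162 (minus strand).
Top2a: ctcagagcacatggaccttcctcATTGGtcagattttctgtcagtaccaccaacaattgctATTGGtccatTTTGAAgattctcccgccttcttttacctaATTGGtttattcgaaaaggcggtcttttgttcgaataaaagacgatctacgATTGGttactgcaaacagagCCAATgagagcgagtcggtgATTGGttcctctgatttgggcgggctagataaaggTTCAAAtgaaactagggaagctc
Ube2c: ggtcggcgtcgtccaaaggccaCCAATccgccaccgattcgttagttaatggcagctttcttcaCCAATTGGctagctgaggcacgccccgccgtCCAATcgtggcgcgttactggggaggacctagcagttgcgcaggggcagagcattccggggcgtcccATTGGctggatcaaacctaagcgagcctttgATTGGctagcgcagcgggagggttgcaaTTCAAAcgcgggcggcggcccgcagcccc
Ccnb2: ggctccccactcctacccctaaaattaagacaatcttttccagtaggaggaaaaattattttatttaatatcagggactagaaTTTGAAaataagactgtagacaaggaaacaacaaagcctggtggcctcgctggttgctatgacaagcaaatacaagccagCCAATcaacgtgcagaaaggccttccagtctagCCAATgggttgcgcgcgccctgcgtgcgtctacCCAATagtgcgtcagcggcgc
Cdk1: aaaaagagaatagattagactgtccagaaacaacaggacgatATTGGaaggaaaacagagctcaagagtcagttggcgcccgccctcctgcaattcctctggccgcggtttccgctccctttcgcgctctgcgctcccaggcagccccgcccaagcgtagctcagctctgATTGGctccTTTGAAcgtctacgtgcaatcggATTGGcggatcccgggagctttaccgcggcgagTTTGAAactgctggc

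The CHR nearest to the start began 23 bases before it in Top2a, 29 in Ube2c and 15 in Cdk1. In Ccnb2 it began 5 bases after the start, outside the printed stretch, and a second one lay 167 bases before. These distances are from the RefSeq starts. The GENCODE annotation starts Ube2c at chr2:164769898 and Cdk1 at chr10:69352938, both within the printed stretches, so the distances depend on the annotation. In Ube2c one CCAAT overlapped an ATTGG. Birc5 and Nusap1 held neither sequence in their windows. Over whole lists, a CHR was in 18 of 20 windows of spindle motor and microtubule genes (90%) and in 6 of 36 of DNA replication genes (16.7%), against 18.1% of all windows and 12.1% of the windows of tested genes. Mitotic kinase and kinetochore genes lay between, with a CHR in 7 of 13 (53.8%) and 10 of 21 (47.6%). CCAAT was in 15 of the 20 (75%) and 26 of the 36 (72.2%), in 9 of the 13 mitotic kinase genes (69.2%) and in 14 of the 21 kinetochore genes (66.7%), against 37.9% of all windows and 39.2% of those of tested genes. A match is a run of letters, and binding was not measured here.

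Dividing cells differed from the other kept cells in 3225 of 11302 tested genes (28.5%), with 1688 higher (14.9%) and 1537 lower (13.6%) at an adjusted p below 0.05 (edgeR quasi-likelihood test with the mouse as a block, Benjamini-Hochberg over all tested genes). The levels of the 2 groups did not overlap between mice in 2998 genes (26.5%), and the median log2 difference of all genes was -0.02. The counts were 2191 higher and 1957 lower without mouse 1, 679 and 458 without mouse 2, and 729 and 475 without mouse 3. Cell cycle genes move together with the score, so their calls do not measure a difference independent of how the cells were chosen. They are given below as counts and sizes, as log2 difference ± SE, without p-values.

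The kinases that run mitosis and the checkpoint that guards it were higher in dividing cells in 17 of 17 tested genes, with a median log2 difference of 4.14. Plk1, the Polo-like kinase (chromosome 7, 122159439 to 122169873, plus strand, build mm10), had 32.2, 34.9 and 41.6 CPM in dividing cells, against 0.199, 0.915 and 0.871 CPM in other kept cells, a log2 difference of 5.46 ± 0.19. Aurka and Aurkb, the Aurora kinases of spindle poles and of centromeres, differed by 3.96 ± 0.13 and 4.09 ± 0.14. Bub1b, a spindle checkpoint kinase, differed by 5.07 ± 0.28. The groups were far apart in each mouse for all 4 genes.

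Of the cyclins and their partners, 14 of 18 genes were higher, with a median of 2.23. Of the 14, 13 were higher in CPM in each mouse. Ccnb1, the main mitotic cyclin, had 65.4, 74.7 and 99.1 CPM in dividing cells, against 0.498, 1.94 and 3.78 CPM in other kept cells (log2 difference 4.99 ± 0.27). Ccna2, the cyclin of S phase and G2, differed by 4.95 ± 0.20 and Cks1b, a small subunit of the cyclin-dependent kinases, by 3.56 ± 0.08. The D-type cyclins, which carry growth signals into G1, did not pass the test: Ccnd1 had 57.3 ± 14.5 CPM in dividing cells and 59.1 ± 7.40 CPM in other kept cells, and Ccnd2 57.9 ± 11.4 CPM in dividing cells and 59.2 ± 24.2 CPM in other kept cells (mean ± SD, n = 3 mice). Of the anaphase promoting complex, its activators and separase, 11 of 14 genes were higher (median 1.35). Cdc20, its mitotic activator, had 85.1, 64.1 and 88.5 CPM in dividing cells, against 1.40, 2.64 and 2.86 CPM in other kept cells. Pttg1, which encodes securin, differed by 2.78 ± 0.11.

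The machinery that moves and packs chromosomes followed the same pattern. Spindle motors and microtubule factors were higher in 23 of 23 genes (median 4.41), kinetochore genes in 25 of 25 (3.49), condensin and cohesin genes in 11 of 12 (1.70) and genes of cytokinesis in 10 of 10 (3.96). Of the 23 spindle genes, 22 were higher in CPM in each mouse. Aspm, a spindle pole protein, had 30.4, 60.3 and 46.7 CPM in dividing cells, against 0.0997, 1.19 and 1.08 CPM in other kept cells, and its log2 difference of 5.53 ± 0.19 was the largest among the named genes that the rule did not use. Hmmr, which binds spindle microtubules, differed by 5.37 ± 0.17. Nuf2 of the outer kinetochore differed by 4.63 ± 0.30, Ncapg and Smc2 of condensin by 4.47 ± 0.17 and 3.11 ± 0.07, and Cep55, which acts in the last cut between daughter cells, by 4.61 ± 0.14. Tubulins were higher in 6 of 9 genes, at smaller differences (median 0.76) and higher levels. Tuba1b reached 1115, 1212 and 1587 CPM in dividing cells, against 267, 266 and 374 CPM in other kept cells, and Tubb4b 235, 305 and 454 CPM in dividing cells, against 31.9, 54.9 and 74.0 CPM in other kept cells. Genes of the nuclear envelope, which breaks down and is rebuilt in mitosis, were higher in 7 of 9 (median 1.55), with Tmpo at 2.36 ± 0.09 and Lbr at 1.55 ± 0.12.

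**Figure D2:**
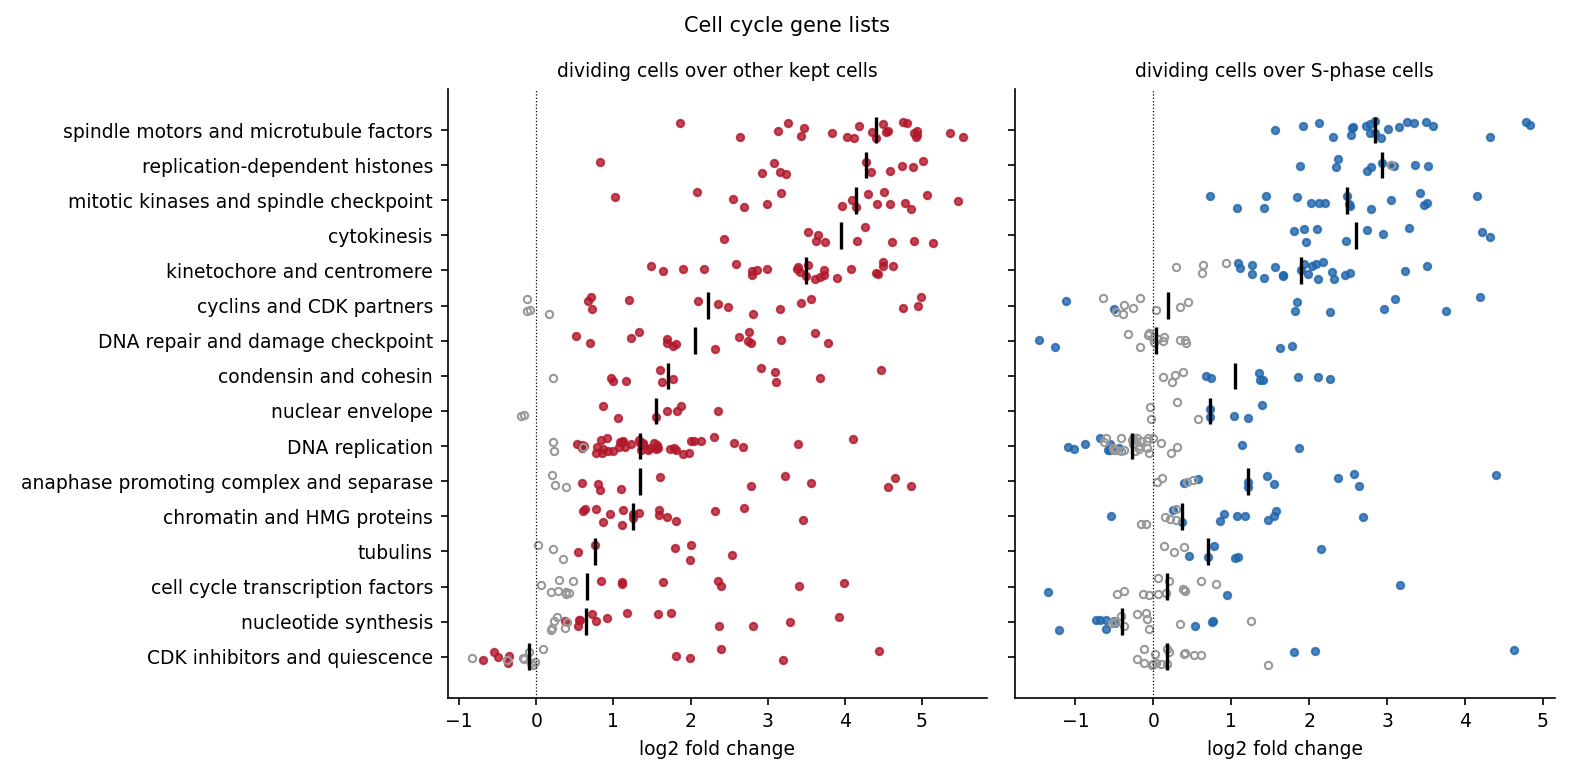
Log2 differences of cell cycle genes by list, dividing cells over other kept cells and over S-phase cells in a panel each; each point is a gene, filled where its adjusted p is below 0.05 and open grey where it is not, and black bars are list medians. Mitotic kinases, spindle motors and cytokinesis genes lie to the right in both panels, with medians of 4.14, 4.41 and 3.96 over the other cells and 2.49, 2.85 and 2.60 over S-phase cells, whereas the DNA replication list has medians of 1.35 and -0.27.

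The dividing cells also carried transcripts of S phase. DNA replication genes were higher than in the other kept cells in 42 of 45 tested (median 1.35), genes of nucleotide synthesis in 14 of 20 (0.64), DNA repair genes in 16 of 16 (2.06) and replication-dependent histone genes in 11 of 11 (4.28). Without mice 1, 2 and 3 in turn, 17, 11 and 11 nucleotide synthesis genes were higher. Pclaf, a partner of the replication clamp PCNA, had 258, 304 and 308 CPM in dividing cells, against 7.97, 17.1 and 21.7 CPM in other kept cells (4.11 ± 0.24). Rrm2, the regulated subunit of ribonucleotide reductase, had 77.9, 88.6 and 81.0 CPM in dividing cells, against 1.20, 5.19 and 7.15 CPM in other kept cells (3.92 ± 0.42). Hist1h1b, a linker histone gene, had 123, 766 and 336 CPM in dividing cells, against 2.09, 20.7 and 11.9 CPM in other kept cells, with mouse 2 the highest in both groups. Most replication-dependent histone transcripts have no poly(A) tail, and the library kit captures poly(A) ends, so these counts cover only what was primed. In the ranking of all kept cells by the S-phase score, 12, 38 and 98 dividing cells (26.1, 25.7 and 20.1%) fell in the top 7% of their library, so the label of G2 and mitosis holds for the genes that chose the cells while a part of the cells also ranked high for S phase.

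Against S-phase cells the differences were fewer. The S-phase cells were not free of mitotic transcripts. UMIs of 5 or more of the 10 score genes were found in 1 of 43, 22 of 137 and 89 of 454 of them (2.33, 16.1 and 19.6%). The part of these cells in the differences was not tested. Of 10180 tested genes, 560 differed (5.5%), 386 higher (3.79%) and 174 lower (1.71%), and the levels did not overlap in 1404 (13.8%). The counts were 705 higher and 541 lower without mouse 1, 247 and 75 without mouse 2, and 147 and 14 without mouse 3. Mitotic kinases were higher in 17 of 17 (median 2.49), spindle motors in 22 of 22 (2.85), cytokinesis genes in 10 of 10 (2.60), kinetochore genes in 21 of 25 (1.89; 14 without mouse 3), replication-dependent histones in 10 of 11 (2.93) and genes of the anaphase promoting complex in 10 of 14 (1.22; 4 without mouse 3). Cyclins split, with 7 of 18 higher and 2 lower, and 6 lower without mouse 1. Of the DNA replication genes that had not chosen the S-phase cells, 2 of 35 were higher and 9 lower (median -0.27), and 17, 4 and 0 were lower without mice 1, 2 and 3 in turn. Nucleotide synthesis genes had 3 of 20 higher and 7 lower (-0.40), and 10, 5 and 0 lower without those mice.

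Among the genes at 50 CPM or more named for this comparison, Hmmr had the largest difference from S-phase cells, with 69.8, 132 and 105 CPM in dividing cells, against 1.01, 4.90 and 3.88 CPM in S-phase cells (log2 difference 4.78 ± 0.16). Cdc20 differed by 4.40 ± 0.17 and Plk1 by 4.15 ± 0.25. Cdkn3, a phosphatase that acts on cyclin-dependent kinases, had 56.4, 52.8 and 71.5 CPM in dividing cells, against 0, 1.84 and 3.31 CPM in S-phase cells. Ccnb1 differed by 3.75 ± 0.24, and by 4.76 without mouse 3. In the opposite direction, Ccnd1 had 41.2, 69.3 and 61.5 CPM in dividing cells, against 131, 140.3 and 116 CPM in S-phase cells (-1.12 ± 0.13). E2f1, the activator of S-phase genes, had 28.7, 25.5 and 18.1 CPM in dividing cells, against 53.3, 52.1 and 58.7 CPM in S-phase cells (-1.35 ± 0.16). Lig1, the ligase that seals newly made DNA, differed by -0.87 ± 0.11 and Hells, a chromatin remodeller, by -1.28 ± 0.14, and neither passed without mouse 3. Lig1 also did not pass with scores at 2000 UMIs or without the block. The levels of Ccnd1 and E2f1 did not overlap between the groups. Ccnd2 differed by -0.51 ± 0.11, a call that was lost without mouse 2, without mouse 3, at equal depth, on separate UMIs, with scores at 2000 UMIs, by DESeq2 and without the block.

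The share of cells with a UMI of each phase was also read after every cell had been thinned to 2000 UMIs. S-phase score genes had a UMI in 51.2% ± 2.50 of dividing cells, 87.5% ± 1.41 of S-phase cells and 24.5% ± 3.32 of other kept cells (mean ± SD, n = 3 mice). Replication-dependent histone genes had one in 69.6% ± 10.7 of dividing cells, 17.1% ± 6.998 of S-phase cells and 19.5% ± 2.84 of other kept cells. Mitotic kinase and checkpoint genes had one in 79.2% ± 8.04 of dividing cells, 33.4% ± 2.78 of S-phase cells and 18.7% ± 1.08 of other kept cells. Without thinning, and counting cells with UMIs of 3 or more genes of a list, the shares for S-phase score genes, histones and mitotic kinases were 64.4, 69.8 and 89.2% of dividing cells, 97.04, 12.6 and 41.3% of S-phase cells and 21.9, 8.68 and 10.8% of other kept cells. Histone transcripts were thus found in most dividing cells, while in S-phase cells their share lay within the SD of that in the other kept cells. Both scores chose these cells, so the shares of the S-phase score genes are a description. The S-phase cells were drawn from the other kept cells, so the cells with the highest mitotic scores had been left out of them beforehand. The shares of the mitotic kinase and histone genes are therefore not independent of the choice of the cells either.

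**Figure D3:**
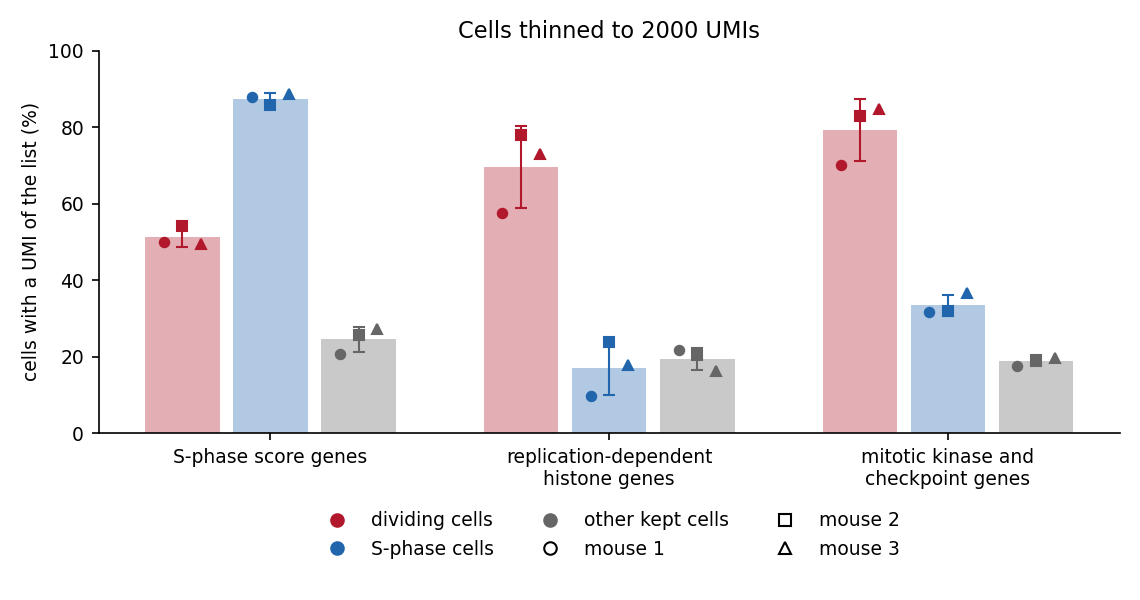
Share of cells with a UMI of 3 gene lists at 2000 UMIs per cell, for dividing cells, S-phase cells and other kept cells from left to right; bars are means over 3 mice with SD and points are mice. Histone genes were found in 69.6% of dividing cells but in 17.1% of S-phase cells, whereas the S-phase score genes were found in 51.2% of dividing cells and 87.5% of S-phase cells.

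Brakes of the cycle moved both ways. Of 19 inhibitors and genes of quiescence, 5 were higher and 5 lower in dividing cells than in other kept cells (median -0.10). Of these calls, 9 had the same sign in CPM in each mouse. The 5 higher genes were Cdkn3 (4.44 ± 0.15), the INK4 inhibitor genes Cdkn2c (3.20 ± 0.17), Cdkn2d and Cdkn2a, and Rbl1, a pocket protein gene of the retinoblastoma family. Cdkn1a, which encodes the inhibitor p21, had 278, 418 and 348 CPM in dividing cells, against 440.2, 505 and 422 CPM in other kept cells (-0.49 ± 0.09, adjusted p = 0.00349, edgeR). It was lower in each mouse, and the highest dividing group (418 CPM) lay just below the lowest of the others (422 CPM). Against S-phase cells, Cdkn1a had 348 ± 70.4 CPM in dividing cells and 339.7 ± 50.5 CPM in S-phase cells, and did not pass (adjusted p = 0.999, edgeR). The antiproliferative genes Btg1, Btg2, Klf2 and Foxo3 were the other lower ones. Of the 16 transcription factors of the cycle, 8 were higher (median 0.66; 11 without mouse 1). Foxm1, the activator of G2 and mitosis genes, had 14.3, 16.5 and 21.3 CPM in dividing cells, against 0.199, 1.17 and 1.27 CPM in other kept cells, and 0, 0.919 and 3.02 CPM in S-phase cells. Of 11 genes of p53 and its targets, 1 was higher and 3 lower, with 0 and 2 without mouse 2 or without mouse 3. Over all tested genes, 14.9% were higher and 13.6% lower. Myc, a driver of growth and ribosome synthesis, had 16.6 ± 3.65 CPM in dividing cells and 16.9 ± 6.44 CPM in other kept cells and did not pass.

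Genes that mark macrophages were detected in dividing cells, most at a modestly lower share of the RNA. Of 16 macrophage lineage genes, 12 were lower and 0 higher (median -0.26, against -0.02 over all genes). A call rests on the fitted difference, and 9 of the 12 were lower in CPM in each mouse. Without mouse 2, 7 were lower, and without mouse 3, 6. Csf1r, the CSF1 receptor, had 723, 631 and 693 CPM in dividing cells, against 804, 741 and 715 CPM in other kept cells (-0.25 ± 0.06, adjusted p = 0.0085, edgeR). It was lower in each mouse, with ranges that overlapped between mice. The call did not hold without mouse 2 (-0.21) or among cells of equal depth (-0.21). Per cell, Csf1r had 17.5, 18.1 and 12.2 UMIs in dividing cells, against 13.1, 13.6 and 8.48 UMIs in other kept cells. Maf, a transcription factor of macrophages, had 146, 119 and 121 CPM in dividing cells, against 212, 176 and 159 CPM in other kept cells (-0.60 ± 0.07, adjusted p = 0.000157, edgeR). The 2 groups did not overlap for Maf. Adgre1, which encodes the F4/80 of the sort, had 236 ± 34.6 CPM in dividing cells and 306 ± 34.9 CPM in other kept cells (-0.49 ± 0.06). Lyz2, the lysozyme gene, had 5701, 7300.1 and 7379 CPM in dividing cells, against 11684, 10238 and 12107 CPM in other kept cells (-0.85 ± 0.14), and did not pass without mouse 3. Of the genes of growth factor receptors and ligands, 7 of 9 were lower (median -0.60; 4 without mouse 2 and 3 without mouse 3), among them Csf3r, the G-CSF receptor (-0.91 ± 0.12), and Il4ra, the interleukin-4 receptor (-0.68 ± 0.08). Csf1 itself had 17.5 ± 10.3 CPM in dividing cells and 11.3 ± 4.29 CPM in other kept cells and did not pass.

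Summed transcripts of macrophage function genes took a smaller share of the RNA of dividing cells, and no function was measured. Of 201 such genes tested, 86 were lower than in other kept cells and 22 higher. Abundant transcripts weigh most in a sum, among them Apoe and the MHC class II genes of antigen presentation. The latter summed to 12331, 21606 and 19562 CPM in dividing cells, against 28627, 34142 and 26086 CPM in other kept cells. The 208 function genes of the lists together took 12.7, 13.2 and 13.6% of the UMIs of dividing cells, against 16.98, 17.4 and 17.5% in other kept cells and 13.4, 14.8 and 15.04% in S-phase cells. The 291 cell cycle genes took 2.47, 2.98 and 3.11% in dividing cells, against 0.929, 1.01 and 1.09% in other kept cells and 1.36, 1.602 and 1.77% in S-phase cells. Since a dividing cell held more UMIs, a lower share need not be a lower number per cell. Of the 86 function genes that were lower in CPM, 53 had more UMIs per dividing cell than per other kept cell in each of the 3 mice, 9 had fewer in each, and 24 were mixed. Lamp1, a lysosomal membrane protein, had 21.6, 25.2 and 14.996 UMIs per cell in dividing cells, against 19.7, 20.3 and 12.6 in other kept cells, while its CPM were lower by 0.47 ± 0.05 on the log2 scale. Apoe, the lipid carrier (chromosome 7, 19696109 to 19699188, minus strand), was among the 9: it had 18358, 19259 and 24421 CPM in dividing cells, against 29842, 34932 and 38724 CPM in other kept cells (-0.85 ± 0.04, adjusted p = 2.07e-07, edgeR), and 446, 552 and 431 UMIs per cell in dividing cells, against 485, 642 and 459 in other kept cells. It was lower on both scales in each mouse. In a fit without the mouse as a block, 0 to 3 genes of each list described as lower here were lower. In that fit Cdkn1a, Csf1r, Adgre1, Maf, Lamp1, H2-Eb1, Il1b, Il1rn, Arg1, Plac8, Trem2, Clec10a, Procr, Mrc1, Epcam, Uqcr10 and Nop58 did not pass.

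Lysosome genes were lower in 12 of 15 (median -0.35), 11 of them in CPM in each mouse, and in 8 without mouse 2. Ctsl, the protease cathepsin L, had 152, 135 and 128 CPM in dividing cells, against 437, 239 and 318 CPM in other kept cells (-1.31 ± 0.14, adjusted p = 0.0016, edgeR), and 3.70, 3.86 and 2.26 UMIs per cell in dividing cells, against 7.10, 4.40 and 3.77 in other kept cells. Genes for the uptake of dead cells and complement were lower in 7 of 12 (-0.48). Gas6, the bridge between dying cells and their receptors, had 72.5, 60.3 and 63.5 CPM in dividing cells, against 156, 103 and 151 CPM in other kept cells (-1.14 ± 0.10, adjusted p = 1.77e-05, edgeR), and Mertk, one of those receptors, differed by -0.64 ± 0.09. The levels of Ctsl, Gas6 and Mertk did not overlap. Lipid-associated genes were lower in 10 of 13 (-0.45; 6 without mouse 2), with Apoe and Cd63 among them, and Trem2 had 624 ± 139.9 CPM in dividing cells and 741 ± 142 CPM in other kept cells (-0.36 ± 0.06), a call that was lost without mouse 2.

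Antigen presentation by MHC class II was lower in 5 of 10 genes (median -0.58), and 7 without mouse 1. Of the 5, 4 were lower in CPM in each mouse. H2-Ab1 had 2349, 4619 and 4252 CPM in dividing cells, against 5469, 7312 and 5702 CPM in other kept cells (-0.87 ± 0.22). It did not pass with 3 mice (adjusted p = 0.103, edgeR), and passed with any 1 of the mice left out, at differences of -0.63, -0.93 and -1.05. H2-Eb1 had 54.6, 121 and 92.2 CPM in dividing cells, against 106, 167 and 118 CPM in other kept cells (-0.62 ± 0.11, adjusted p = 0.00264, edgeR), and did not pass among cells of equal depth (-0.55). Of the genes of LYVE-1 resident-type macrophages, 6 of 12 were lower (-0.90; 10 without mouse 2 and 3 without mouse 3). Selenop, a selenium carrier, had 1438, 939 and 944 CPM in dividing cells, against 2406, 1685 and 1794 CPM in other kept cells (-0.94 ± 0.05, adjusted p = 3.23e-07, edgeR). Folr2, a folate receptor, had 75.2, 75.4 and 75.1 CPM in dividing cells, against 139, 107 and 141 CPM in other kept cells (-0.86 ± 0.09). Lyve1 itself had 0, 17.2 and 7.09 CPM in dividing cells, against 5.28, 17.1 and 28.8 CPM in other kept cells, and did not pass (adjusted p = 0.267, edgeR). Without mouse 2 it differed by -2.21 and passed. Mrc1, the mannose receptor, differed by -0.76 ± 0.17, a call that was lost without mouse 3 (-0.80), at equal depth (-1.47), with an 8% mitochondrial limit, with the top 5% of cells, with scores at 2000 UMIs, with members of 5 or more score genes, in all mice or in mouse 1, and without the block.

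Inflammatory genes were lower in 9 of 14 (median -0.37; 6 without mouse 2, 5 without mouse 3, and 5 lower and 1 higher among cells of equal depth). Il1b, the cytokine interleukin-1 beta, had 3872, 5074 and 3249 CPM in dividing cells, against 5720.3, 5985 and 3995 CPM in other kept cells (-0.47 ± 0.07, adjusted p = 0.00321, edgeR). The Il1b levels were lower in each mouse and overlapped between mice. Il1rn, the antagonist of its receptor, differed by -0.68 ± 0.07. Hypoxia genes were lower in 5 of 9 (-0.64), 4 of them in CPM in each mouse, and in 3 without mouse 3. Arg1, an arginase of tumour macrophages, had 2.69, 0.707 and 3.49 CPM in dividing cells, against 80.6, 7.91 and 20.1 CPM in other kept cells (-3.19 ± 0.31, adjusted p = 0.000363, edgeR), and Vegfa, the angiogenic factor, 91.3, 68.1 and 80.0 CPM in dividing cells, against 129, 118 and 128 CPM in other kept cells (-0.77 ± 0.08). The Arg1 level of the dividing cells rested on 36 UMIs over all 3 mice, against 2638 in other kept cells. Mouse 1 was the highest of the other kept cells for Arg1, whose difference was -4.45 without mouse 3, and -2.07 and not past the threshold with the top 10% of cells. Monocyte genes were lower in 4 of 8 (-1.17), Plac8 by 2.01 ± 0.16 on the log2 scale, while Ccr2 had 73.4, 172 and 111 CPM in dividing cells, against 243, 159 and 114 CPM in other kept cells, and did not pass. Immediate-early and heat shock genes, which tissue digestion can induce, were lower in 6 of 13 (-0.42; 11 without mouse 1 and 4 without mouse 2).

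**Figure D4:**
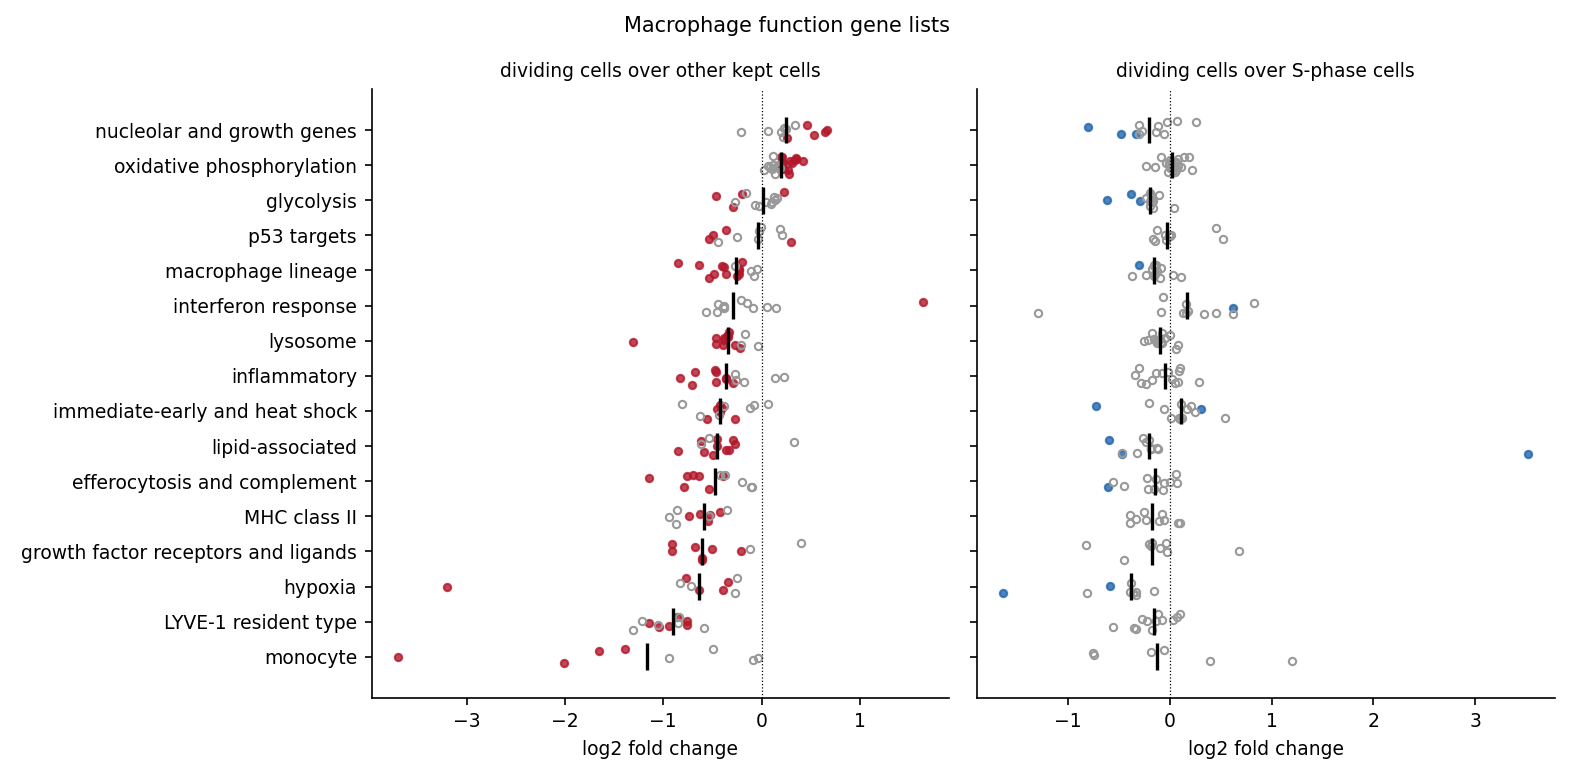
Log2 differences of macrophage function genes by list, dividing cells over other kept cells and over S-phase cells in a panel each; each point is a gene, filled where its adjusted p is below 0.05 and open grey where it is not, and black bars are list medians. Most lists have medians below 0 against the other cells, for example -0.90 for LYVE-1 resident-type and -0.35 for lysosome genes, and medians nearer 0 against S-phase cells.

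A few function genes were higher. Cxcl10, a chemokine that attracts T cells (chromosome 5, 92346638 to 92348889, minus strand), had 612, 250.04 and 357 CPM in dividing cells, against 146, 101 and 96.6 CPM in other kept cells (1.64 ± 0.15, adjusted p = 0.0016, edgeR). Its levels did not overlap, it had 14.8, 7.17 and 6.29 UMIs per cell in dividing cells, against 2.38, 1.87 and 1.14 in other kept cells, and it did not pass without mouse 1 (1.53). It was the 1 gene of 12 in the interferon list that was higher, with 0 lower and a median of -0.29, and 4 lower without mouse 3. Isg15, an interferon-induced modifier, had 102 ± 29.4 CPM in dividing cells and 108 ± 10.5 CPM in other kept cells. Nuclear genes of the respiratory chain were higher in 14 of 24 (median 0.20), but in 1 without mouse 2, in 5 without mouse 3 and in 4 among cells of equal depth. Uqcr10, of complex III, had 348, 328 and 344 CPM in dividing cells, against 228, 225 and 253 CPM in other kept cells (0.42 ± 0.06). Nucleolar and growth genes were higher in 5 of 12 (0.25; 8 without mouse 1 and 3 without mouse 2), among them Nop58, a core protein of nucleolar RNA particles (0.66 ± 0.09). Glycolytic genes went both ways, with 1 of 14 higher and 3 lower, where 14.9% of all tested genes were higher and 13.6% lower. They had 0 of either without mouse 2 or without mouse 3. Of these calls with 3 mice, 2 had the same sign in CPM in each mouse.

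The function lists were also read per cell, at 2000 UMIs each, as the share of cells in the top 10% of their library for a list. Shallower cells were left out, which kept 40, 146 and 480 dividing cells and 577, 1854 and 6233 other kept cells. No test was made, since the smallest p that 3 mice allow in an exact sign-flip test is 0.25. Since the top 10% is a fixed share of each library, the share of other kept cells follows from that of dividing cells. The SD of the other kept cells is therefore no measure of a spread between mice. Cells high for MHC class II made up 2.21% ± 0.249 of dividing cells and 10.6% ± 0.0271 of other kept cells (mean ± SD, n = 3 mice). They were 1 of 40, 3 of 146 and 10 of 480 dividing cells in mice 1, 2 and 3. For lipid-associated genes the share was 2.84% ± 1.90 of dividing cells and 10.6% ± 0.140 of other kept cells, and for LYVE-1 resident-type genes 3.79% ± 2.06 of dividing cells and 10.5% ± 0.152 of other kept cells. For hypoxia genes it was 5.07% ± 0.317 of dividing cells and 10.4% ± 0.0329 of other kept cells, and for inflammatory genes 5.90% ± 1.42 of dividing cells and 10.3% ± 0.0940 of other kept cells. In these 5 lists the dividing cells lay below the other cells in each mouse. Cells high for monocyte genes were 2 of 40 dividing cells of mouse 1, 20 of 146 of mouse 2 (13.7%) and 40 of 480 of mouse 3 (8.33%), with the others of each mouse between 9.71 and 10.4%, so the groups had no common order. The interferon list went the other way, with 27.5, 13.01 and 15.4% of dividing cells, against 8.84, 9.76 and 9.58% of other kept cells. That order rested on Cxcl10: with the other 11 genes, a list taken after the values were seen, the shares were 7.50, 6.16 and 10.2% of dividing cells, against 10.2, 10.3 and 9.98% of other kept cells.

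**Figure D5:**
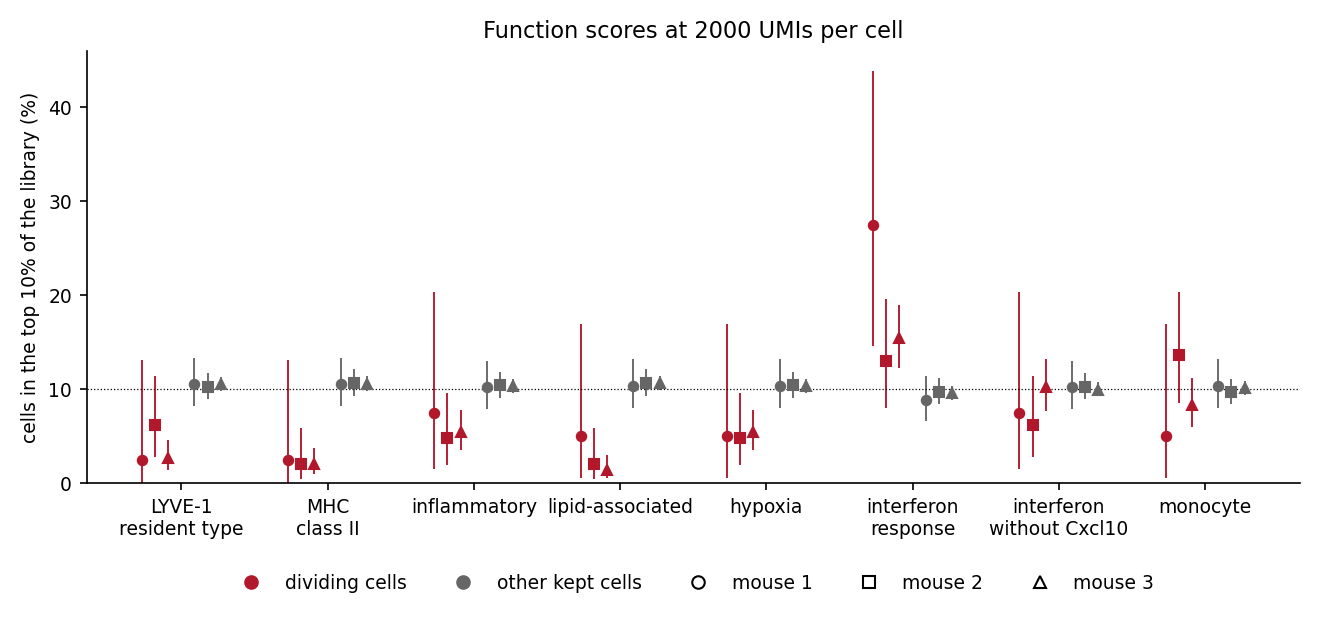
Share of cells in the top 10% of their library at 2000 UMIs per cell, for 7 function lists and for the interferon list without Cxcl10. A point per mouse is given for dividing cells (left) and other kept cells (right), with exact binomial 95% intervals. The dotted line is at 10%. Dividing cells lie below the line for 5 lists, on both sides for monocyte genes and above it for the interferon list. For the interferon list without Cxcl10, taken after the values were seen, they lie on both sides.

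Fewer function genes passed against S-phase cells. Of 198 function genes tested, 3 were higher and 13 lower in dividing cells than in S-phase cells (8.08%, against 5.5% of all genes), with a median log2 difference of -0.11, against 22 higher and 86 lower of 201 relative to the other kept cells. At an unadjusted p below 0.05 there were 71 of the 198, and DESeq2's Wald test called 2 higher and 7 lower. The counts changed with the setting, with 11 higher and 54 lower without mouse 1, 0 and 12 without mouse 2, 1 and 3 without mouse 3, 0 and 1 without the block, and 2 higher and 34 lower of 185 among cells of equal depth. The calls lay in glycolysis (3 of 14 lower), nucleolar and growth genes (3 of 12 lower), hypoxia (2 of 9 lower), lipid-associated genes (1 of 13 higher and 2 lower), immediate-early genes (1 of 13 each way), efferocytosis genes (1 of 12 lower), macrophage lineage and interferon genes, and the other 8 lists had 0. Of the 16 macrophage lineage genes 1 was lower, Lyz2 (-0.30), and 7 were lower without mouse 1. Csf1r had 682 ± 46.8 CPM in dividing cells and 709 ± 31.9 CPM in S-phase cells, and H2-Ab1 had 3740.2 ± 1218 CPM in dividing cells and 4454 ± 736 CPM in S-phase cells. Neither of them passed. A p that misses the threshold does not show that the groups were alike. Cxcl10 was higher than in S-phase cells by 0.62 on the log2 scale and passed. Procr, the endothelial protein C receptor gene, had 45.7, 22.4 and 37.9 CPM in dividing cells, against 154, 56.1 and 84.9 CPM in S-phase cells (-1.38 ± 0.12) and 83.5, 42.1 and 91.5 CPM in other kept cells (-1.17 ± 0.10), and passed in both comparisons. Against S-phase cells it did not pass with the top 10% of cells (-1.19) or without the block (-1.53).

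Outside the lists, the genes with the largest differences from the other kept cells were of both kinds. Knstrn, a spindle and kinetochore protein, had 58.2, 56.1 and 70.0 CPM in dividing cells, against 3.59, 4.08 and 4.64 CPM in other kept cells (3.79 ± 0.11), and Ezh2, the histone methyltransferase of Polycomb, 83.3, 105 and 99.8 CPM in dividing cells, against 15.5, 22.4 and 19.5 CPM in other kept cells (2.22 ± 0.09). Of the lower genes, Hal, which breaks down histidine, had 22.4, 29.0 and 17.7 CPM in dividing cells, against 89.7, 56.5 and 59.1 CPM in other kept cells (-1.59 ± 0.19, adjusted p = 0.00195, edgeR). Clec10a, a galactose-binding lectin, had 86.8, 86.5 and 41.8 CPM in dividing cells, against 248, 149 and 107 CPM in other kept cells (-1.29 ± 0.15, adjusted p = 0.00139, edgeR). Wfdc17 had 532, 538 and 727 CPM in dividing cells, against 1204, 939 and 1416 CPM in other kept cells (-1.08 ± 0.08, adjusted p = 1.12e-05, edgeR), and did not pass among cells of equal depth (-1.95) or with scores at 2000 UMIs (-1.16). The levels of all 5 genes did not overlap between the groups. Epcam, the marker of tumour epithelium, was lower too, with 0.895, 2.36 and 5.81 CPM in dividing cells, against 3.69, 10.4 and 10.8 CPM in other kept cells (-1.36 ± 0.24). Its difference was -2.22 without mouse 3. It did not pass among cells of equal depth (-0.95), or once cells with 3 or more markers of another lineage were removed (-0.46).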

How the data were processed

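Per the labels and the submitters' processing notes, the authors made the deposited UMI count matrices with Cell Ranger 3.0.2 (build mm10) from 10x 3' v3 libraries of 3 mice. The annotation version is not given in the sources used here. The filters, 500 genes or more and no more than 15% of UMIs from mitochondrial genes, took out 411, 362 and 451 barcodes. The members, lists and named genes were chosen with earlier results of these data known. Sums of counts per mouse and group entered edgeR 4.0.16 under R 4.3.3 (TMM scaling, filterByExpr, robust quasi-likelihood F test, 2-sided, mouse as block, since both sums come from the same tumour). Adjustment ran over all tested genes outside the scores, with a threshold of 0.05. CPM are UMIs of a gene over all UMIs of the sum, before TMM, so a fitted log2 difference can depart from their ratio. On simulated data, the fit recovered known changes, and the comparison with S-phase cells made more false calls than its nominal share. Python 3.11.15 and scanpy 1.11.5 were used, Scrublet calling 26 doublets (0.267%), too few to have worked. Removing the 0.8% per 1000 cells with the highest doublet scores was an alternative. Named genes were, per list, the 3 largest past the threshold at 20 CPM or more, with the same sign in 3 of 3 mice, the 8 largest each way at 50 CPM outside the lists and against S-phase cells, and a fixed set given whatever its result. Some genes of that rule are not reported here, and Lbr, Foxm1, Folr2, Isg15, the brakes of the cycle without values, and Cd63 were added from the lists after their values were seen. Mice are the replicates, and with the mouse as block the p-values measure the spread between mice of the difference within each mouse. Promoter windows are from RefSeq.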

Additional observations from a re-analysis of the deposited data

Results flagged for a closer look

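Barcodes that failed the cell filters and were used in no comparison also held mitotic transcripts. UMIs of 5 or more of the 10 score genes were found in 9 of 411 removed barcodes of mouse 1 (2.19%), in 4 of 362 of mouse 2 (1.10%) and in 6 of 451 of mouse 3 (1.33%). These barcodes had medians of 7297, 5044 and 3312.5 UMIs and of 34.4, 17.9 and 17.8% mitochondrial UMIs. They stand here because they lie outside the analysed cells, where a count of 0 would allow 3 barcodes.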

How the results depend on the processing

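Over the alternatives, 2981 values of named genes kept their direction and side of the threshold, 116 lost the threshold, 33 gained it and 29 turned sign. The number of genes higher and lower in dividing cells than in other kept cells was 1080 and 979 among cells of equal depth, 1115 and 1000 by DESeq2's Wald test (1.42.0), 605 and 136 without the mouse block that pairs the groups, and from 679 to 2191 and from 458 to 1957 with a mouse left out. Against S-phase cells it was 210 and 42 by DESeq2, 161 and 11 without the block, and from 147 to 705 and from 14 to 541 with a mouse left out, and 95 were lower without the filter on low counts. In the number of genes, other settings stayed within 1.5 times, but the genes called were not always the same. Against S-phase cells, the main fit called 386 genes higher and 174 lower. Of these, 311 and 66 were called again with scores at 2000 UMIs, and 287 and 86 on separate UMIs. At equal depth 283 and 95 were called again, and with the top 10% 330 and 111. With the top 20% in place of 10%, the shares of dividing cells were 10.0% for LYVE-1, 7.73% for MHC class II, 12.5% for inflammatory, 8.92% for lipid-associated, 10.96% for hypoxia, 31.1% for interferon and 17.2% for monocyte genes. Without thinning hypoxia gave 4.10%, and without Cxcl10 the interferon list gave 7.96%. Sign turned in genes that had not passed. Against other kept cells Ccnd1 became 0.032 (top 10%) and 0.0251 (S-phase cells left out) and Ccnd2 0.0896 (without mouse 2; -0.21 to 0.0896 with a mouse left out). Against S-phase cells Cdkn1a became 0.0355 (1000 genes), 0.0205 and 0.0385 (8 and 25% mitochondrial limits), 0.166 (top 10%), 0.0178 (doublets), 0.0258 and 0.0259 (5 or more score genes, in all mice and in mouse 1), 0.0144 (no filter), 0.00137 (no block) and 0.0398 (without mouse 1; -0.0645 to 0.0398 with a mouse left out). Lyve1 became 0.0821 (top 5%), 0.0601 (other lineages removed), 0.0842 (DESeq2) and 1.75 (without mouse 3; from -1.43). Ccr2 became 0.0218, 0.0375 and 0.226 (top 5%, top 10%, without mouse 1; from -0.409), Maf 0.0826 (top 10%), Il1b 0.0934 and 0.101 (top 10%, scored at 2000 UMIs), Epcam 0.316 (scored at 2000 UMIs) and Mrc1 0.0028 (without mouse 1; from -0.394). Myc became -0.205 (equal depth), -0.215 (separate UMIs), -0.0108 (scored at 2000 UMIs) and -0.0164 (without mouse 2; up to 0.242). The cause was not tested. The smallest group of dividing cells, in mouse 1, held 46 cells.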
